A study of Mus musculus with 8 samples.

Results

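The genes described here are 33 mouse genes of the antioxidant system that is built on glutathione, thioredoxin and the transcription factor Nrf2. They were taken from a list of gene symbols, and all 33 were found among the 15465 genes of the deposited table. They fall into 5 arms, namely Nrf2 with its repressor (2 genes), Nrf2 target enzymes that act on quinones, NADP and biliverdin (4), glutathione (12), thioredoxin and peroxiredoxin (12), and superoxide dismutase and catalase (3). The 8 samples were of dendritic cells made from the bone marrow of wild-type C57/BL6 mice. All cells had grown for 6 days with GM-CSF plus IL-4 and had seen lipopolysaccharide for 24 hours. Bead selection for CD11c and a coculture of 9 days with spleen stroma followed, which gives the cells that the protocol calls diffDC and the sample labels BMDC. In 4 samples the diffDC then received a control siRNA (si-nc), and in the other 4 an siRNA against Suclg2 (si-Suclg2), the gene for a subunit of the mitochondrial enzyme that converts succinyl-CoA to succinate. The time from transfection to collection, and whether the replicates were separate cultures or animals, are not stated in these sources, so p-values measure the spread between these samples only. The stroma is a possible second source of RNA in the culture.

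Nrf2, the product of Nfe2l2, is held in the cytoplasm by Keap1 and marked there for degradation. Oxidants and electrophiles modify Keap1, and Nrf2 then enters the nucleus and binds antioxidant response elements in the promoters of genes that make glutathione and NADPH and that reduce peroxides. Glutathione is made by glutamate-cysteine ligase (Gclc and Gclm) and glutathione synthetase (Gss), is used by peroxidases, transferases and glutaredoxin, and is restored by Gsr. The thioredoxin chain runs in parallel, from NADPH through thioredoxin reductase and thioredoxin to the peroxiredoxins. In macrophages and dendritic cells these chains limit the oxidants that NADPH oxidase and mitochondria release after contact with lipopolysaccharide.

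Levels are FPKM (fragments scaled to transcript length and to library size), a unit inferred from how the deposited values scale with transcript length. Summed FPKM per sample lay between 506241 and 539290, and the number of reads behind a value is not known. Suclg2 itself was at 4.68, 4.69, 4.56 and 4.43 FPKM in the 4 si-nc samples and at 2.23, 2.30, 2.76 and 2.61 FPKM in the 4 si-Suclg2 samples. The groups did not overlap and 53.9% of the mean remained (log2 change -0.69 ± 0.066 SE, adjusted p = 8.84e-05 by limma; two-sided exact permutation test p = 0.0286, the smallest that 4 against 4 samples allow). Of 12 dendritic cell markers 7 were in the table; Flt3, Zbtb46 and Clec9a were below 1 FPKM in every sample, while Itgax, Clec10a, Ccr7 and Batf3 were tested, and Itgax and Clec10a fell. Itgax was at 16.4 to 22.6 FPKM with si-nc and 11.4 to 13.5 FPKM with si-Suclg2. With the replicate number as a block, 1 of the tested dendritic cell markers rose and 2 fell. The macrophage and monocyte markers were abundant, and their sum was at 25900 to 32550 FPKM with si-nc and 20510 to 24950 FPKM with si-Suclg2, without overlap. Of the 12, 3 rose and 5 fell (4 and 5 with the replicate number as a block). Over all genes tested 12.0% rose and 14.9% fell, and 18.0% and 22.5% with that block. Adgre1, 1 of the 3 macrophage and monocyte markers that rose while 5 fell, was at 297 to 368 FPKM with si-nc. It was at 549 to 648 FPKM with si-Suclg2, against the direction of the marker sum. Summed dendritic cell markers were at 35.6 to 44.6 FPKM with si-nc and 22.5 to 24.8 FPKM with si-Suclg2. The part of these markers in the results below was not tested. In such bulk RNA, fewer cells of a type and less RNA per cell cannot be told apart.

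With si-Suclg2, 12 of the 33 antioxidant genes rose and 5 fell at an adjusted p under 0.05 (limma on log2(FPKM + 1), Benjamini-Hochberg over all 10176 genes tested), and 16 did not pass. The genes that rose were Glrx, Prdx5, Blvrb, Prdx1, Nqo1, Sod2, Prdx4, Gclm, Prdx2, Txn1, Gss and Keap1, and those that fell were Gpx3, Nfe2l2, Cat, Gsto1 and Mgst1. Together these are 51.5% of the members, where 26.9% of all genes tested were called. The 12 rises are 36.4% of the members, where 12.0% of all genes tested rose. The 5 falls are 15.2% of the members, where 14.9% of all genes tested fell, so the share of falls was near the background. Abundant genes were called more often, and most of these genes are abundant. Among the 3401 genes with a mean of at least 20 FPKM, a level chosen after the values were seen, 37.8% were called, 21.7% as rises and 16.1% as falls. Of the 28 members at that level 10 rose and 5 fell, which is 35.7% and 17.9%. The median log2 fold change of the 33 genes was 0.07, against -0.025 over all genes tested. Both groups' samples stood apart without overlap for 18 of the 33 genes, 12 above and 6 below, where 29.6% of all genes tested did so (13.2% above and 16.4% below). Leaving out si-nc replicate 4, or si-Suclg2 replicate 2, reduced the falls to 3, and Gsto1 and Mgst1 were the genes lost. With the replicate number as a block, 14 rose and 7 fell, where 40.5% of all genes tested were called, 18.0% as rises and 22.5% as falls.

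**Figure D1:**
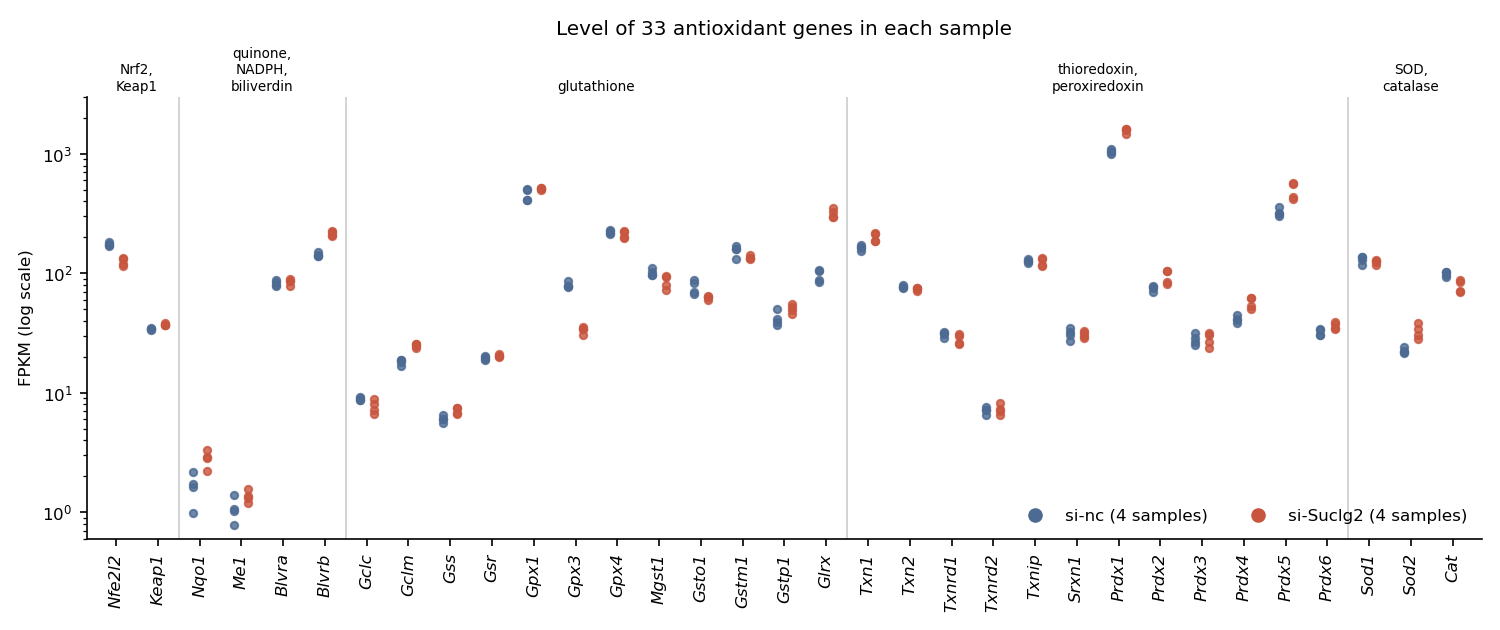
FPKM on a log axis for the 33 genes in each of the 4 si-nc (blue) and 4 si-Suclg2 (red) samples, ordered by arm. The si-nc means run from 1.06 FPKM for Me1 to 1051 FPKM for Prdx1, and the wide gaps between the groups are at Gpx3 and Glrx.

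As the plot of levels by sample shows, the 33 genes ran from very low to very high, with a median of the si-nc means of 77.0 FPKM. Prdx1, Gpx1 and Prdx5 had the highest si-nc means, at 1051, 457 and 325 FPKM, followed by Gpx4 at 221.5 FPKM and Nfe2l2 at 176 FPKM. Me1 and Nqo1, at 1.06 and 1.63 FPKM, had the lowest. All 33 genes reached the mean of 1 FPKM in a group that was needed for the test.

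**Figure D2:**
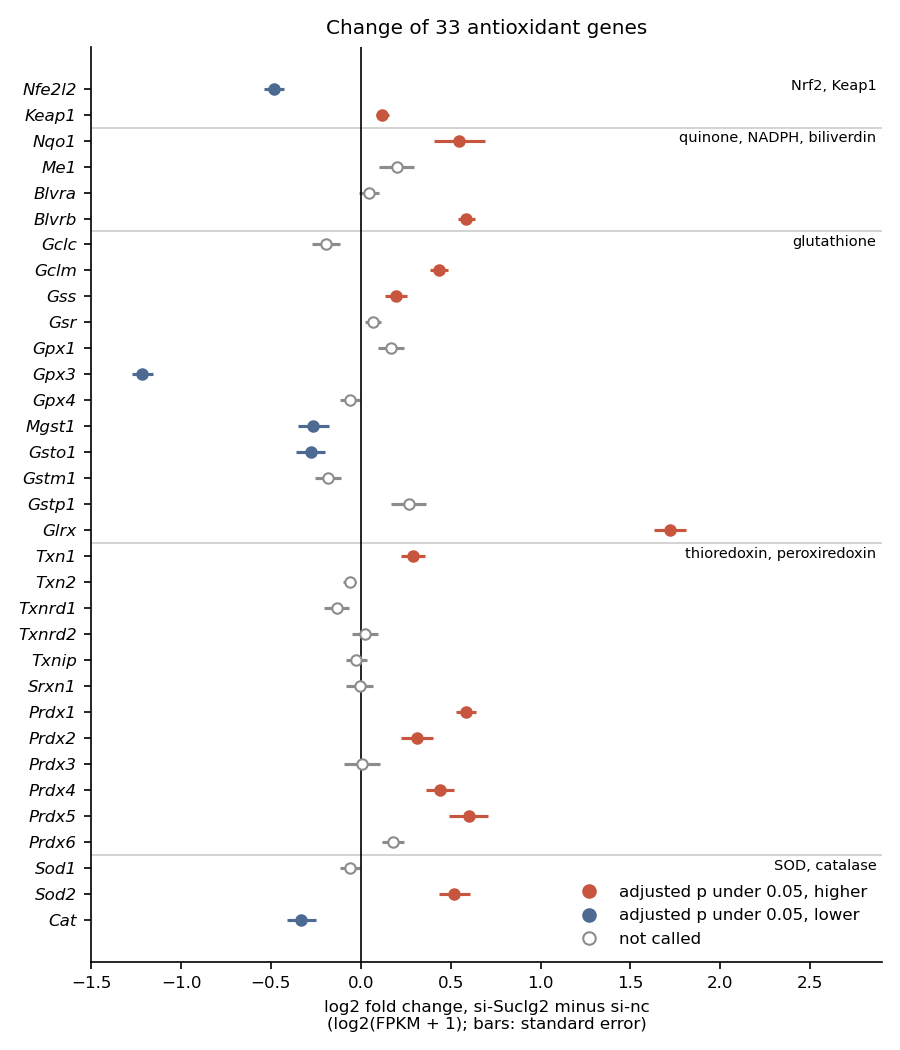
Log2 fold change (si-Suclg2 minus si-nc, on log2(FPKM + 1)) with its standard error for each of the 33 genes, by arm, from 4 samples against 4. Filled points passed an adjusted p of 0.05 (red higher, blue lower), and they range from -1.22 for Gpx3 to 1.72 for Glrx.

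Nrf2 and its repressor moved in opposite directions at the mRNA level. Nfe2l2 (chr2:75675513-75704663 in the RefSeq annotation of GRCm38.p6) was at 176, 183, 173 and 170.0 FPKM in the si-nc samples and at 135, 131, 116 and 119.9 FPKM in the si-Suclg2 samples. The groups were far apart, and in both the samples numbered 1 and 2 were the higher ones (log2 change -0.48 ± 0.055 SE, adjusted p = 0.000249 by limma). Keap1, the substrate adaptor of the ubiquitin ligase that degrades Nrf2, was at 33.9, 33.7, 34.8 and 34.3 FPKM and 38.3, 37.1, 36.9 and 36.7 FPKM, with all si-Suclg2 samples slightly above the control range (log2 change 0.12 ± 0.036 SE, adjusted p = 0.0348 by limma). The rise of Keap1 was small, at 8.96%, and it was not called after quantile normalization, with a common column sum or without the mean trend, nor when 1 sample was left out, unless that sample was si-nc replicate 3, nor with numbers 3 and 4 alone. The ratio of Nfe2l2 to Keap1 was 4.95 to 5.44 in the si-nc samples and 3.15 to 3.54 in the si-Suclg2 samples, a description with no test. The table holds mRNA only, and the amount or place of the Nrf2 protein was not measured.

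Nrf2 acts through sequence elements in promoters, so the stretch from 250 bases before to 50 bases after each start site was searched (RefSeq, GRCm38.p6; 30 of the 33 genes had an entry, 40 promoters in all). The core letters TGACNNNGC, on either strand, stood in 9 of the 30 genes (30%), which are Nfe2l2, Blvra, Srxn1, Gclm, Prdx1, Mgst1, Me1, Txnrd1 and Sod1. They stood in 17.3% of the 8249 tested genes with an entry. Of the 9 genes, Prdx1 and Gclm rose and Nfe2l2 and Mgst1 fell, so the core letters stood in genes of either direction. Blvra, Srxn1, Me1, Txnrd1 and Sod1 were not called in the main fit. Txnrd1 was called as a fall with the replicate block, and Me1 as a rise after quantile normalization. The letters TGANTCAGC, a form that overlaps the AP-1 motif TGANTCA, were searched after the sequences had been read. They stood in 4 of the 30 genes (13.3%), which are Prdx1, Srxn1, Me1 and Gstp1, against 1.32% of the tested genes. A choice made after reading can favour the members, so these shares are a description with no test. The 4 promoters with TGANTCAGC are shown with that of Gclm. In this way 2 genes that rose (Prdx1 and Gclm) can be read beside 3 not called in the main fit (Srxn1, Gstp1 and Me1). With the replicate block Gstp1 was called as a rise. Capitals mark every match to either set of letters, and each line runs 5′ to 3′ on the strand of the gene.
Prdx1 (chr4:116685349-116685648, plus strand): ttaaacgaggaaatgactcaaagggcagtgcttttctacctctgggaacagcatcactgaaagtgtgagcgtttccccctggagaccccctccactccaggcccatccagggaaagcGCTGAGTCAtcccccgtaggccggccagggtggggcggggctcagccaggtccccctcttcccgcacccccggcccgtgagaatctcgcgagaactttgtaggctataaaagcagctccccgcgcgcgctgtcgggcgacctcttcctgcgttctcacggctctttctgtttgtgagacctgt
Gclm (chr3:122245307-122245606, plus strand): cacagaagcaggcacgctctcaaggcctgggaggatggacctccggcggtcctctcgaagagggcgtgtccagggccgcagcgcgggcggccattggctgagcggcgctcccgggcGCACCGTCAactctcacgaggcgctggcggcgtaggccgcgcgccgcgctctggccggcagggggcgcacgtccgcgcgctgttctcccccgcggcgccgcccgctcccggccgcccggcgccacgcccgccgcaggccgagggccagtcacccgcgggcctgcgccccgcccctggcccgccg
Srxn1 (chr2:152105274-152105573, plus strand): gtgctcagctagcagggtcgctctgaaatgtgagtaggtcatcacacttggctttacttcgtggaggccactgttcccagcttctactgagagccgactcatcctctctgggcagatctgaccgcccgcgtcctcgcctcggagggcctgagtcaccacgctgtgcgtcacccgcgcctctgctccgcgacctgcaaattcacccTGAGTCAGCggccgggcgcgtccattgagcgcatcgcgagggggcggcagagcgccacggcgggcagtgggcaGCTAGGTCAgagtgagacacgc
Gstp1 (chr19:4037863-4038162, minus strand): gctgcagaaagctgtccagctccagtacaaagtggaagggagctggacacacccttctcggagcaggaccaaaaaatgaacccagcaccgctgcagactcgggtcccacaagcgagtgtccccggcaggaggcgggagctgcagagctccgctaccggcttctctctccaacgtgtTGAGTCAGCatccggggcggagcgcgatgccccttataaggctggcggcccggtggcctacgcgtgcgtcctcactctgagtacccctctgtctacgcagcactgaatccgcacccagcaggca
Me1 (chr9:86695865-86696164, minus strand): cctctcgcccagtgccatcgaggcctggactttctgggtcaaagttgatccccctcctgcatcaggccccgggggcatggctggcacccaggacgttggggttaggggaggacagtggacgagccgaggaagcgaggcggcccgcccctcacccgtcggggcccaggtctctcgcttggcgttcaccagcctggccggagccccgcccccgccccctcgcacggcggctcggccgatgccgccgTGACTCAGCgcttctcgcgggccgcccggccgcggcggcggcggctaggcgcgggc
Of the 4 genes with TGANTCAGC, Prdx1 was called in the main fit, and Prdx1 and Gstp1 with the replicate block. In Prdx1 the match lies 133 to 125 bases before the start site and fits both sets of letters. In Srxn1 the TGANTCAGC match lies 45 to 37 bases before the start, and in Gstp1 it lies 74 to 66 bases before it. A match is a description of these letters and not a bound site, and elements farther from the start were not searched.

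The 4 Nrf2 target enzymes outside the large arms held 2 rises and 0 falls, where 12.0% of all genes tested rose and 14.9% fell. With 4 genes these counts are small. Blvrb, the NADPH-dependent flavin and biliverdin reductase, was at 142, 140.0, 139 and 150.4 FPKM with si-nc and at 208, 204, 226 and 224 FPKM with si-Suclg2, with the control samples close together and every si-Suclg2 sample far above them (log2 change 0.59 ± 0.048 SE, adjusted p = 3.65e-05 by limma). Blvrb and Prdx2 are abundant in red blood cells, and the erythroid markers summed to 0.23 to 1.5 FPKM with si-nc and 0.26 to 0.35 FPKM with si-Suclg2. Nqo1, a quinone reductase and a classical Nrf2 target, was at 2.19, 1.73, 0.990 and 1.62 FPKM with si-nc. It was at 3.31, 2.88, 2.23 and 2.84 FPKM with si-Suclg2, the lowest of these only just above the highest control sample (log2 change 0.55 ± 0.14 SE, adjusted p = 0.0191 by limma), and at such low levels the scale understates the 1.72-fold difference of the means. Blvra, the main biliverdin reductase, had means of 82.9 ± 4.24 FPKM in the controls and 85.5 ± 4.88 FPKM under si-Suclg2 (SD, n = 4 each, as for every mean with ± that follows). Me1, the cytosolic malic enzyme that yields NADPH, had means of 1.06 ± 0.251 FPKM in the controls and 1.36 ± 0.155 FPKM under si-Suclg2. The groups overlapped for both (limma adjusted p = 0.593 and 0.165). Me1 was called as higher after quantile normalization (limma adjusted p = 0.0212).

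In the glutathione arm, 3 of 12 genes rose, 3 fell and 6 did not pass, where 12.0% of all genes tested rose and 14.9% fell. With the replicate block 4 rose and 4 fell, where 18.0% and 22.5% of all genes tested did. The modifier subunit of glutamate-cysteine ligase, Gclm, rose while the catalytic subunit, Gclc, did not. Gclm was at 18.2, 18.9, 16.7 and 18.8 FPKM in the si-nc samples and 25.6, 25.6, 23.9 and 24.6 FPKM in the si-Suclg2 samples, with a wide gap between the groups (log2 change 0.44 ± 0.05 SE, adjusted p = 0.000269 by limma). Gclc was at 9.15, 9.12, 8.77 and 8.65 FPKM and 8.86, 8.09, 7.18 and 6.69 FPKM, with 1 si-Suclg2 sample inside the control range and the samples numbered 3 and 4 lowest (log2 change -0.20 ± 0.077 SE, adjusted p = 0.0924 by limma, and 0.0245 as a fall with the replicate block). Gclc was also called as a fall without si-Suclg2 replicate 1 and with numbers 3 and 4 alone. The same held with the division into numbers 1 and 2 against 3 and 4 as a block. The ratio of Gclm to Gclc was 1.91 to 2.18 in the si-nc samples and 2.88 to 3.68 in the si-Suclg2 samples, given as a description. Gss, which adds the last amino acid of glutathione, was at 5.58, 6.01, 6.53 and 6.07 FPKM and 6.75, 7.46, 7.41 and 6.70 FPKM, a narrow separation (log2 change 0.20 ± 0.061 SE, adjusted p = 0.0393 by limma). Its call was lost when si-nc replicate 1, 2 or 4 was left out, or si-Suclg2 replicate 2 or 3, with a common column sum, with no filter on low values and with numbers 3 and 4 alone.

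Glrx and Gpx3, which both use glutathione, had the widest changes of the whole set. Glrx, the cytosolic glutaredoxin that takes glutathione off protein thiols (chr13:75839885-75850151), was at 105, 106, 88.6 and 85.3 FPKM in the si-nc samples. In the si-Suclg2 samples it was at 294, 298, 327 and 356 FPKM, so that the lowest of these stood far above the highest control (log2 change 1.72 ± 0.088 SE, adjusted p = 2.62e-06 by limma; 3.31-fold). Gsr, the reductase that regenerates glutathione with NADPH, was at 19.6 ± 0.793 FPKM in the controls and 20.5 ± 0.521 FPKM under si-Suclg2 (limma adjusted p = 0.315), with overlapping groups. Gpx3, the secreted glutathione peroxidase (chr11:54902854-54910387), was at 77.8, 78.1, 77.0 and 85.8 FPKM and fell to 35.8, 34.2, 34.4 and 30.6 FPKM (log2 change -1.22 ± 0.058 SE, adjusted p = 2.1e-06 by limma). The si-Suclg2 mean was 0.423 times the control mean, with all 4 samples far below the controls, and Gpx3 was the only one of the 3 glutathione peroxidase genes that was called. Gpx1, the main cytosolic peroxidase and the most abundant gene of the arm, was at 505, 495, 415 and 412 FPKM and 497, 506, 522 and 519.8 FPKM. The control numbered 1 lay within the si-Suclg2 range, number 2 just below it and numbers 3 and 4 far below it, and the difference did not pass (log2 change 0.17 ± 0.073 SE, adjusted p = 0.123 by limma, and 0.0354 as a rise with the division into numbers 1 and 2 against 3 and 4 as a block). Gpx4, the lipid hydroperoxide reductase that protects cells from ferroptosis, was at 222 ± 7.05 FPKM in the controls and 213 ± 14 FPKM under si-Suclg2 (limma adjusted p = 0.450). It was called as lower after quantile normalization and with numbers 1 and 2 alone (limma adjusted p = 0.0239 and 0.0155). An annotated pseudogene, Gpx4-ps2, can share its reads.

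Of the 4 glutathione transferase genes, Gsto1 and Mgst1 fell, and both calls were fragile. Gsto1, the omega-class transferase, was at 67.6, 70.1, 82.8 and 87.6 FPKM and 64.9, 60.2, 63.2 and 63.7 FPKM, with the controls numbered 3 and 4 well above the other 2 (log2 change -0.28 ± 0.08 SE, adjusted p = 0.03 by limma). The call ended when si-nc replicate 3 or 4 was left out singly, and so for si-Suclg2 replicate 2, 3 or 4, and with numbers 1 and 2 alone. Mgst1, the microsomal transferase, was at 97.5, 96.9, 104 and 111 FPKM and 73.2, 80.2, 93.1 and 95.1 FPKM, with the highest si-Suclg2 samples just below the lowest control (log2 change -0.26 ± 0.086 SE, adjusted p = 0.0472 by limma). This call too was lost without any single si-nc sample, without si-Suclg2 replicate 1 or 2, after trimmed-mean scaling, without the mean trend and with no filter. Gstm1, of the mu class, was at 155 ± 16 FPKM in the controls and 136 ± 5.45 FPKM under si-Suclg2 (limma adjusted p = 0.0939), and Gstp1, of the pi class, at 42.0 ± 5.97 FPKM in the controls and 50.5 ± 4.02 FPKM under si-Suclg2 (limma adjusted p = 0.0664, and 0.0253 as a rise with the replicate block). Reads of Gstm1 and Gstp1 can be shared with close relatives such as Gstm2 and Gstp2, so both values are uncertain. Gstm1 was called as lower without si-nc replicate 3, after quantile normalization, with a common column sum, with numbers 1 and 2 alone and with the division as a block (limma adjusted p = 0.0467 for the last). Gstp1 was called as higher without si-nc replicate 4, with numbers 1 and 2 alone and with the division as a block.

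The 14 spleen stroma and fibroblast genes summed to 20.9 to 47.9 FPKM in the si-nc samples and 16.8 to 35.4 FPKM in the si-Suclg2 samples. Of these, 7 were tested and 0 passed, where 14.9% of all genes tested fell. With the replicate block 5 fell, where 22.5% of all genes tested did. The median log2 fold change of the 7 tested was -0.47, and they were Col1a1, Col1a2, Col3a1, Dcn, Sparc, Fn1 and Vcam1. The other 7, Lum and Pdgfra among them, were under 1 FPKM in both group means. The part of the stroma in the falls of Gpx3 and the other genes was not tested.

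In the thioredoxin and peroxiredoxin arm, 5 of 12 genes rose and 0 fell (6 and 1 with the replicate block), where 12.0% and 14.9% of all genes tested did, and 21.7% and 16.1% of those with a mean of at least 20 FPKM. Of the rises 4 were peroxiredoxins, which reduce hydrogen peroxide and are restored by thioredoxin. Prdx1, a cytosolic peroxiredoxin and the most abundant of the 33 genes, was at 1034, 1109, 1009 and 1052 FPKM in the si-nc samples. It was at 1468, 1624, 1586 and 1626 FPKM in the si-Suclg2 samples, a 1.5-fold difference with a wide gap (log2 change 0.58 ± 0.054 SE, adjusted p = 7.83e-05 by limma). Prdx5, which works in mitochondria, peroxisomes and cytosol, was at 303, 316, 323 and 359 FPKM and 423, 433, 559 and 575 FPKM. The groups did not overlap, and the si-Suclg2 samples numbered 3 and 4 were the highest (log2 change 0.60 ± 0.11 SE, adjusted p = 0.00297 by limma). Prdx5 overlaps the neighbouring gene Trmt112 in the annotation, and whether counting used the strand is not given; Trmt112 itself fell (log2 fold change -0.24 ± 0.043 SE, limma adjusted p = 0.00296). Prdx4, the peroxiredoxin of the endoplasmic reticulum, was at 38.4, 45.1, 41.2 and 40.8 FPKM and 50.1, 52.9, 61.9 and 61.9 FPKM, without overlap (log2 change 0.44 ± 0.079 SE, adjusted p = 0.00286 by limma).

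Prdx2, another cytosolic form, was at 69.7, 76.9, 75.6 and 77.9 FPKM and 81.6, 84.9, 104 and 105 FPKM. The si-Suclg2 samples numbered 1 and 2 stood just above the controls and those numbered 3 and 4 far above (log2 change 0.31 ± 0.087 SE, adjusted p = 0.0254 by limma). Its call ended when si-nc replicate 1 or 3 was left out singly, and so for si-Suclg2 replicate 3 or 4. Prdx6, which uses glutathione instead of thioredoxin, was at 32.2 ± 1.95 FPKM in the controls and 36.6 ± 2.35 FPKM under si-Suclg2, and 1 si-Suclg2 sample lay within the control range (limma adjusted p = 0.0504, and 0.0294 as a rise with the replicate block; called also when the samples numbered 2 of either group were left out singly, and after trimmed-mean scaling). An annotated pseudogene, Prdx6-ps2, can share its reads. Prdx3, the mitochondrial form, was at 28.0 ± 2.89 FPKM in the controls and 28.2 ± 3.61 FPKM under si-Suclg2 (limma adjusted p = 0.972). The 6 peroxiredoxins summed to 1501 to 1608 FPKM in the si-nc samples and 2082 to 2437 FPKM in the si-Suclg2 samples, and Prdx1 made up 66.0% to 69.0% and 66.6% to 72.0% of the sum.

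Of the genes that feed and repair the peroxiredoxins, Txn1 was the only one called. Txn1, the cytosolic thioredoxin, was at 163, 167, 153 and 173 FPKM and 187, 185, 214 and 217 FPKM, with the si-Suclg2 samples all above the controls (log2 change 0.29 ± 0.066 SE, adjusted p = 0.0106 by limma); an annotated pseudogene, Txn-ps1, can share its reads. Txnrd1, the reductase that restores it with NADPH, was at 30.9 ± 1.6 FPKM in the controls and 28.2 ± 2.66 FPKM under si-Suclg2 (limma adjusted p = 0.185, and 0.0433 as a fall with the replicate block). A fall of Txnrd1 was also called with numbers 3 and 4 alone and with the division as a block. Srxn1, the sulfiredoxin that rescues overoxidised peroxiredoxins, was at 31.1 ± 3.23 FPKM in the controls and 30.9 ± 1.64 FPKM under si-Suclg2 (limma adjusted p = 0.961), with a difference of -0.0068 ± 0.074 (SE) on the log2 scale. Prdx1 was 32.0 to 37.4 times the Srxn1 level in the si-nc samples and 45.0 to 54.7 times in the si-Suclg2 samples, a description with no test. Txnip, which binds and inhibits thioredoxin, was at 127 ± 4.12 FPKM in the controls and 125 ± 10.1 FPKM under si-Suclg2 (limma adjusted p = 0.801). Of the mitochondrial pair, Txn2 was at 77.5 ± 1.57 FPKM in the controls and 74.2 ± 1.62 FPKM under si-Suclg2 and Txnrd2 at 7.15 ± 0.441 FPKM in the controls and 7.31 ± 0.723 FPKM under si-Suclg2 (limma adjusted p = 0.247 and 0.839). The 4 si-Suclg2 values of Txn2 lay just below the 4 control values, without passing the test. Txnrd1 overlaps the protein-coding gene Eid3 in the annotation, so its values are uncertain to that extent.

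Among the genes that remove superoxide and hydrogen peroxide directly, the mitochondrial dismutase rose and catalase fell. Sod2, the manganese superoxide dismutase of the mitochondrial matrix and a known NF-kB target, was at 21.6, 22.3, 21.8 and 24.3 FPKM and 28.4, 30.4, 34.1 and 38.6 FPKM, without overlap and with the si-Suclg2 samples numbered 3 and 4 highest (log2 change 0.52 ± 0.087 SE, adjusted p = 0.0021 by limma). Cat, the peroxisomal catalase, was at 102, 103, 93.1 and 97.7 FPKM and 88.2, 85.4, 69.7 and 71.7 FPKM. Here the si-Suclg2 samples numbered 3 and 4 were the lowest, and those numbered 1 and 2 lay nearer to the controls (log2 change -0.33 ± 0.079 SE, adjusted p = 0.0132 by limma). Sod1, the copper and zinc dismutase of the cytosol and the most abundant gene of the arm, was at 129, 137, 118 and 137 FPKM and 124, 128, 118 and 129 FPKM. Its groups overlapped fully (log2 change -0.06 ± 0.056 SE, adjusted p = 0.49 by limma).

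**Figure D3:**
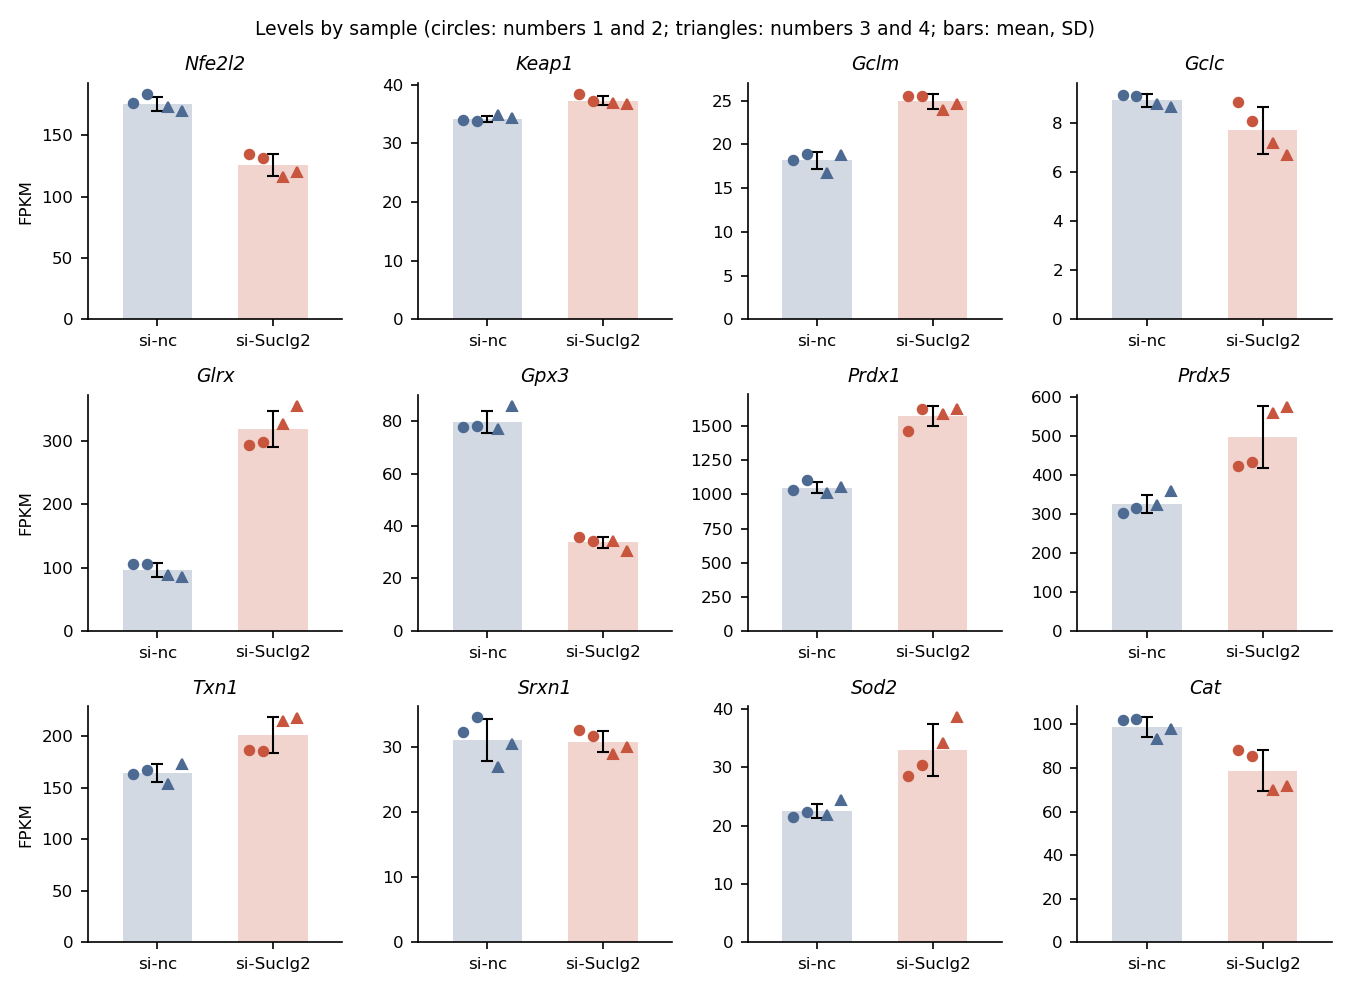
FPKM of 12 of the genes in each sample, with bars for the group mean, error bars for the SD (n = 4) and different symbols for numbers 1 and 2 (circles) and 3 and 4 (triangles). The groups are apart for Nfe2l2, Keap1, Gclm, Glrx, Gpx3, Prdx1, Prdx5, Txn1, Sod2 and Cat, and overlap for Gclc and Srxn1.

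Features that did not enter the choice of the genes cut across the arms. Of the 5 selenoproteins, which carry selenocysteine in the active site (Gpx1, Gpx3, Gpx4, Txnrd1 and Txnrd2), 0 rose and 1 fell, and 2 fell with the replicate block. Over all genes tested 12.0% rose and 14.9% fell (18.0% and 22.5% with the block), so with 5 genes these counts are near the background. Of the 4 genes whose products work only in mitochondria (Txn2, Txnrd2, Prdx3 and Sod2), 1 rose and 0 fell. These counts are small and no difference from the other members was tested.

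The samples of both groups divided by number, with 1 and 2 alike and 3 and 4 alike, and the labels do not say what the numbers share. In 12 of the 33 genes the numbers 1 and 2 stood apart from 3 and 4 in the same direction in both groups, where 40.6% of all genes tested did so. With numbers 1 and 2 alone, 13 of the 33 genes rose and 7 fell (14.4% and 16.7% of all genes tested), and with numbers 3 and 4 alone 12 rose and 7 fell (14.7% and 17.9%). All 17 genes called over the 8 samples had the same sign in both pairs, which the choice of called genes on the pooled samples favours. Glrx was 2.81 times the control mean in numbers 1 and 2 and 3.92 times in numbers 3 and 4, and Prdx5 1.38 and 1.66 times. Gpx1, with 1.003 and 1.26 times, was called as higher with numbers 3 and 4 alone, and Txnip, with 0.917 and 1.05 times, as lower with numbers 1 and 2 alone. Gsto1 had 0.908 and 0.745 times. The difference between the pairs was not tested for any gene.

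**Figure D4:**
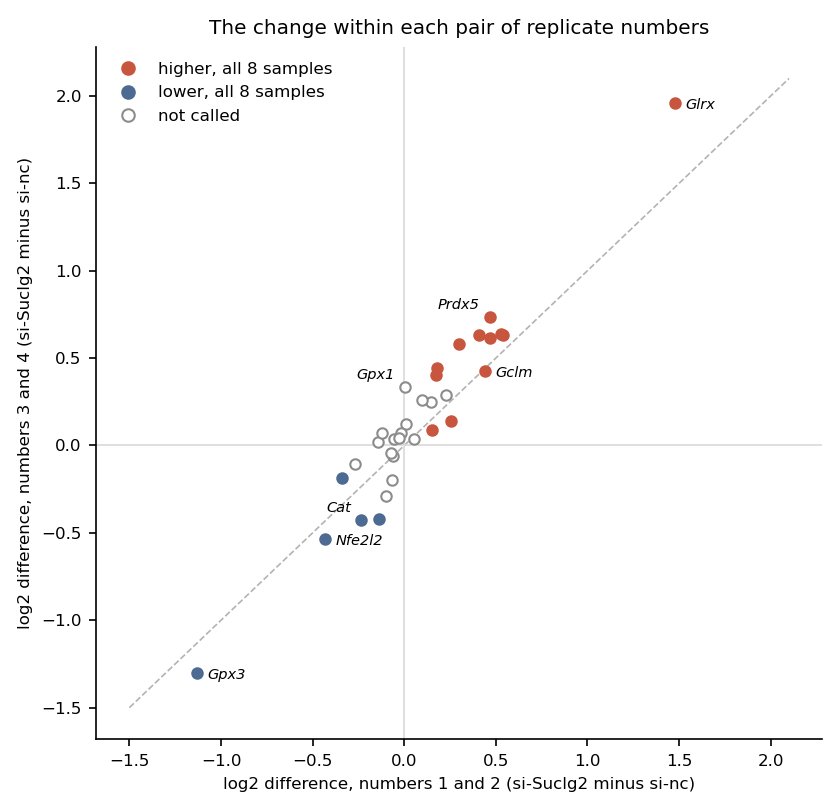
Log2 difference (si-Suclg2 minus si-nc, of log2(mean FPKM + 1)) in the samples numbered 3 and 4 against that in the samples numbered 1 and 2, 1 point per gene, with the dashed line marking equal differences. All filled points (genes called over the 8 samples) lie in the quadrants where both differences have the same sign.

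Other genes of the same pathways were counted from 6 lists, of which 108 of 129 genes were tested. Here 21 rose (19.4%, against 12.0% of all genes tested) and 15 fell (13.9%, against 14.9%), with a median log2 fold change of -0.0045. With the replicate block 29 rose and 23 fell, where 18.0% and 22.5% of all genes tested did. Of 20 other Nrf2 target genes tested, 8 rose and 2 fell (median 0.10), and 9 rose and 3 fell with the replicate block. The rises numbered 6 with no filter, when si-nc replicate 1 or 3 was left out, and likewise for si-Suclg2 replicate 2 or 4. Akr1b8, Ptgr1 and Fth1 were called as rises in the main fit and lost that call in some of the alternatives. Hmox1, the heme oxygenase that makes biliverdin, rose from 224 ± 24.7 to 387 ± 13 FPKM (log2 change 0.79 ± 0.074 SE, adjusted p = 8.31e-05 by limma), and G6pdx, which supplies NADPH through the pentose phosphate pathway, from 108 ± 2.41 to 128 ± 3.54 FPKM (log2 change 0.24 ± 0.038 SE, adjusted p = 0.00167 by limma). Falls on this list were Ephx1, a microsomal epoxide hydrolase, from 24.4 ± 1.56 to 10.2 ± 1.6 FPKM (log2 change -1.19 ± 0.096 SE, adjusted p = 3.39e-05 by limma), and Idh1, another cytosolic source of NADPH, from 52.0 ± 3.1 to 38.7 ± 2.32 FPKM. Slc7a11, which brings in cystine for glutathione synthesis, was at 3.55 ± 0.766 FPKM in the controls and 2.55 ± 0.202 FPKM under si-Suclg2 (limma adjusted p = 0.0572, and 0.00784 as a fall with the replicate block). It was also called as a fall without si-nc replicate 3.

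Of 15 other regulators and partners of Nrf2, 1 rose and 3 fell (median -0.03), where 12.0% of all genes tested rose and 14.9% fell. Nfe2l1, the related factor Nrf1, rose from 55.4 ± 3.0 to 73.5 ± 3.4 FPKM (log2 change 0.40 ± 0.052 SE, adjusted p = 0.000493 by limma). Bach1, the repressor that competes with Nrf2 at the same elements, fell from 24.5 ± 1.15 to 21.2 ± 1.95 FPKM (log2 change -0.20 ± 0.067 SE, adjusted p = 0.0491 by limma), and this fall was lost in 7 of the 8 fits that left out 1 sample (all but that without si-Suclg2 replicate 2). Mafk, a small Maf partner of both factors, fell from 21.8 ± 0.56 to 18.6 ± 1.48 FPKM, a call lost without si-nc replicate 2 or 3, and Rxra, a nuclear receptor that binds Nrf2, from 35.4 ± 1.93 to 29.7 ± 0.761 FPKM. The falls of this list numbered 1 without si-nc replicate 2 or 3.

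Of 24 other glutathione genes tested, 5 rose and 2 fell (median 0.03), and 6 rose and 5 fell with the replicate block. For this list and the next, the shares over all genes tested were 12.0% for rises and 14.9% for falls. With the block they were 18.0% and 22.5%. Esd, the glutathione-dependent S-formylglutathione hydrolase, rose from 158 ± 9.76 to 201 ± 3.06 FPKM, Chac2, which degrades glutathione, from 3.52 ± 0.404 to 4.91 ± 0.382 FPKM, and Ptges, the prostaglandin E synthase, from 0.627 ± 0.019 to 1.20 ± 0.161 FPKM. Ptges was near the floor, and it passed the filter of 1 FPKM only through the si-Suclg2 group, where it was higher. The count of 5 rises includes it. Mgst3 fell from 23.6 ± 2.85 to 17.4 ± 1.88 FPKM (log2 change -0.42 ± 0.098 SE, adjusted p = 0.0114 by limma) but was not called with numbers 3 and 4 alone. The rises numbered 3 when si-nc replicate 1 or 2 was left out, and likewise for si-Suclg2 replicate 4. Of 22 other thioredoxin-fold and methionine sulfoxide genes tested, 4 rose and 4 fell (median -0.06; 8 rose and 7 fell with the replicate block). Msra, which reduces oxidised methionine, fell from 23.3 ± 0.733 to 15.3 ± 0.945 FPKM (log2 change -0.57 ± 0.052 SE, adjusted p = 6.67e-05 by limma), and Txndc16, a protein of the endoplasmic reticulum, from 7.78 ± 1.19 to 5.51 ± 0.144 FPKM. Txnl1, a thioredoxin-like protein of the cytosol, rose from 24.9 ± 0.479 to 29.5 ± 1.28 FPKM and Tmx1, a membrane thioredoxin of the endoplasmic reticulum, from 34.4 ± 1.61 to 42.0 ± 2.61 FPKM.

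Of 17 other selenoprotein and selenocysteine genes, 1 rose and 1 fell (median 0.0019), and 2 rose and 2 fell with the replicate block. The falls were also 2 when si-Suclg2 replicate 3 was left out. For this list and the next, 12.0% of all genes tested rose and 14.9% fell, and 18.0% and 22.5% with the block. Selenow rose from 144 ± 7.5 to 208 ± 24.8 FPKM, while Selenop, the secreted selenium carrier, fell from 724 ± 212 to 392 ± 61.7 FPKM (log2 change -0.85 ± 0.2 SE, adjusted p = 0.0113 by limma). Of 10 NADPH oxidase and other superoxide genes tested, 2 rose and 3 fell (median -0.07), and 3 rose and 3 fell with the replicate block, which added Rac1. The catalytic subunit gene Cybb fell from 313 ± 10.9 to 214 ± 20.5 FPKM (log2 change -0.55 ± 0.067 SE, adjusted p = 0.000367 by limma) and the proton channel gene Hvcn1 from 67.7 ± 4.4 to 49.6 ± 5.85 FPKM. The cytosolic activators Rac2 and Ncf1 rose, from 160.0 ± 2.5 to 305 ± 12.3 FPKM and from 147 ± 3.12 to 196 ± 3.74 FPKM (log2 change 0.93 ± 0.041 SE, adjusted p = 1.38e-06 by limma for Rac2).

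**Figure D5:**
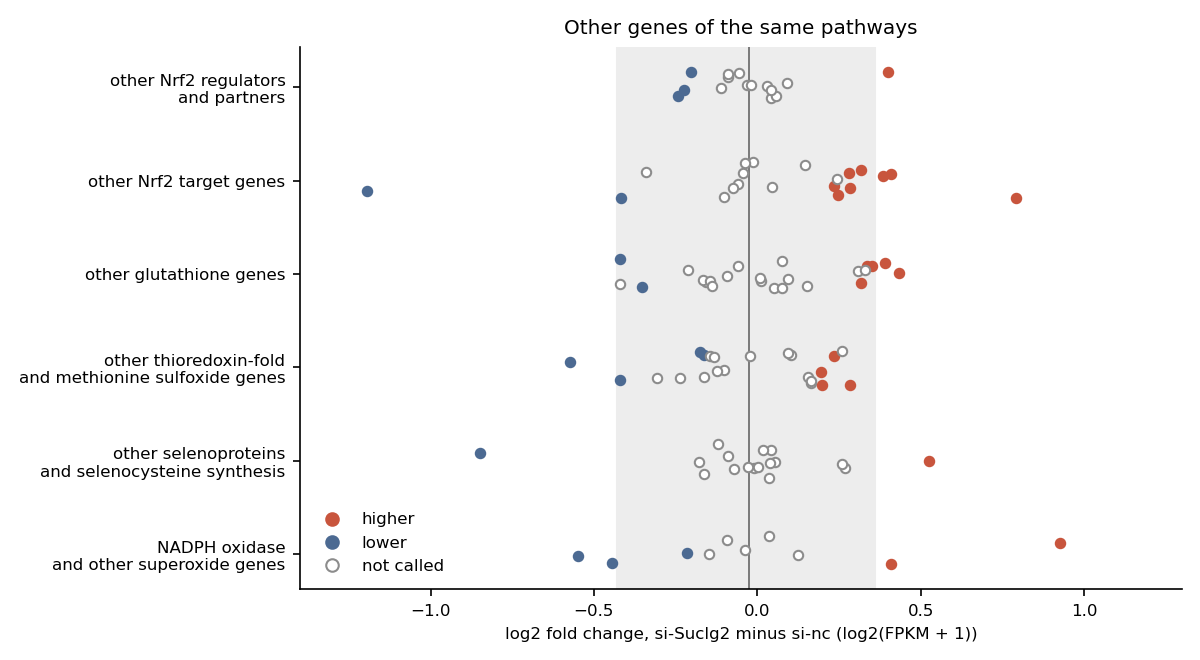
Log2 fold change (si-Suclg2 minus si-nc) of the tested genes on the 6 other lists, 1 point per gene, red or blue where the adjusted p was under 0.05; the grey band holds the central 90% of all 10176 genes, from -0.43 to 0.36, with their median as a line. Points beyond the band include Ephx1 and Selenop on the lower side and Rac2 and Hmox1 on the higher side.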

How the data were processed

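RNA-seq of 8 samples (4 si-nc, 4 si-Suclg2) was used. The deposited table gives 1 value per gene and sample under a header that names no unit; it was read as FPKM because the reads per unit of value, as implied by the deposited p-value and fold change, rose with transcript length (Spearman's rho 0.862 over 4699 genes) and not after division by length (0.005). The genome builds GRCm38.p4 and mm10 are named in the submitters' processing notes; aligner and strandedness are not stated there or in the labels. The header credits DEGseq with the authors' deposited log2 fold changes, p-values and q-values; this q-value was under 0.05 for 28 of the 33 genes and for 47.6% of all genes, and it was not used otherwise. Read depth is unknown, so no counting error is given.

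Genes with a mean of at least 1 FPKM in a group were tested (10176) using limma (version 3.58.1, under R 4.3.3). The response was log2(FPKM + 1), the prior variance followed a mean trend, and p-values were adjusted by Benjamini-Hochberg at 0.05. A fold change on this scale understates low genes. The test was tried on simulated data first. The groups shared replicate numbers, and same-numbered samples deviated together over genes (r = 0.527, 0.439, 0.405 and 0.553), each above 0.1. A fit with the number as a block was therefore run beside the main fit. The main fit held the group only and ignored the numbers. Calls, standard errors and p-values given without a named setting come from the main fit. Samples 1 and 2, and likewise 3 and 4, deviated together as much across the groups (1 with 2, r = 0.525 and 0.524; 3 with 4, r = 0.437 and 0.558), and 3 of 8 samples had their own number as best partner; the division into 1 and 2 against 3 and 4 was fitted as an alternative. The results of the blocked fit stand beside those calls it alters. Alternatives were another pseudocount (0.1), no filter, trimmed-mean, quantile and common-sum scaling, no trend, the block, the division into numbers 1 and 2 against 3 and 4, each of these pairs alone, and leaving out each sample. Per-sample values are given for Nfe2l2, Keap1, each called gene and the highest gene of each arm. From each wider list up to 4 called genes with the smallest p are named, with Hmox1, Slc7a11 and Bach1 in any case; Trmt112 and Eid3 were named after their values were seen. The genes and lists were chosen with earlier results of these data known.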

Additional observations from a re-analysis of the deposited data

Results flagged for a closer look

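Gpx3 in the si-nc group had 1 sample far from the others. Replicate 4 was at 85.83 FPKM, while the other 3 si-nc samples were at 77.8, 78.11 and 77.04 FPKM. Of 68 groups of 4 samples tested in this way (Dixon's test), 1 was flagged, and chance flags about 1 in 20 groups. Without that sample the log2 fold change of Gpx3 stayed within -1.25 to -1.17, the range over all fits that left out 1 sample.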

How the results depend on the processing

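Of 594 values of the 33 genes under 18 alternatives, 507 kept direction and call, 38 lost a call, 28 gained one and 21 turned direction. Of the 17 called genes, 12 kept call and direction under all 18; the exceptions were Keap1, Gss, Mgst1, Gsto1 and Prdx2. With the replicate block 1832 of the 10176 genes tested rose (18.0%) and 2294 fell (22.5%), and 14 of the 33 rose and 7 fell. With the division into numbers 1 and 2 against 3 and 4 as a block, 1995 of the 10176 rose and 2539 fell. In that fit 15 of the 33 genes rose and 8 fell. The replicate block added Gclc, Gstp1, Txnrd1 and Prdx6 and changed no other call among the 33. Leaving out 1 sample gave 9 to 11 rises and 3 to 5 falls among the 33 genes. Over all genes tested those fits gave 956 to 1176 rises and 1171 to 1448 falls. Element matches numbered 9 genes, 2 with an A added at the 3′ end and 4 with TGANTCAGC, the last chosen after seeing the data. The genes whose log2 change turned direction were not called over the 8 samples. Gpx4 was at 0.0227 with numbers 3 and 4 alone. Txnrd2 was at -0.0179 with numbers 1 and 2 alone, and at -0.0288 to 0.0700 when 1 sample was left out. Txnip was at 0.000742 with trimmed-mean scaling, at 0.0743 with numbers 3 and 4 alone and at -0.0597 to 0.0125 when 1 sample was left out. Srxn1 was at 0.0179, 0.0404 and -0.0712 to 0.0453 in those settings. Prdx3 was at -0.0203 with quantile and -0.0201 with common-sum scaling, at -0.0291 with numbers 1 and 2 alone and at -0.0511 to 0.0814 when 1 sample was left out. The cause was not tested.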
